A study of Mus musculus with 6 samples.

Results

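Cluster 1 is a group of luminal epithelial cells from the uterus of CD-1 mice that received corn oil (CO) on days 1 to 5 after birth and were sampled at 12 months of age. Its members are the cells that the authors' clustering of the CO epithelium placed in cluster 1 and that have a column in the count table. There were 400 such cells in the cell annotation, 2 of which had no counts, so 398 cells were described, out of 2583 clustered CO epithelial cells and 48699 cells in both single-cell libraries. Cluster 1 held 15.4% of the clustered CO epithelial cells and was second in size to cluster 0, which held 482. All 398 cells came from 1 library made from the pooled uteri of 2 CO mice, which the study's methods describe as chosen in estrus, after trypsin digestion of the tissue. The study also holds 1 library of 4 pooled mice given diethylstilbestrol (DES, a synthetic estrogen) at 1 mg/kg/day on the same days, and 2 CO and 2 DES tissue sections measured by spatial transcriptomics. The mice of the DES library and of all the sections were likewise CD-1 mice sampled at 12 months of age. With 1 library per condition and clusters formed on these same counts, the differences given here are descriptions of these cells and carry no test.

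The luminal epithelium is the single layer of cells that lines the uterine cavity. It answers estrogen and progesterone, secretes antimicrobial and lubricating proteins, and is the surface an embryo first meets, while the glandular epithelium buds from it into the stroma. Immediate early genes, such as Fos, Jun and Egr1, are switched on within minutes of a stimulus without new protein synthesis. Their products are transcription factors and feedback regulators, and the transcripts are short-lived. NF-kB is a transcription factor held in the cytoplasm by inhibitors such as Nfkbia, and its targets include chemokines and its own inhibitors.

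The authors' luminal clusters other than the cycling cluster 4 were clusters 0, 1, 2, 5, 6, 7, 9, 10 and 11. Cluster 1 was set against the other 8 of these pooled, which held 1510 cells. Levels are unique molecular identifiers (UMIs, one per captured transcript) summed over the cells of a cluster and scaled to the total UMIs of that cluster (counts per 10 to the power 6 UMIs, CPM), and intervals are exact Poisson 95% intervals that cover counting error only. The 398 cells held 11025101 UMIs, with a median of 22184 UMIs per cell (5503 to 92050) and a median of 4494 genes per cell. Median UMIs per cell in the other luminal clusters ran from 16393 in cluster 6 to 34712 in cluster 2. The median share of mitochondrial UMIs was 11.01% in cluster 1 and ran from 8.06% in cluster 0 to 18.4% in cluster 6. One of the 398 cell barcodes was also present in the DES library, out of 180 barcodes that the libraries shared.

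The markers of a luminal cell were present in cluster 1, and since Adgrg7 and the 8 luminal genes below were picked by the study from these libraries, and Wnt4, Fzd1 and Numb of a further list were also described in them, these genes are no independent check of the label. After each cell was thinned to 5000 UMIs, Epcam, an adhesion molecule of epithelial cells, had a UMI in 99.2% of cluster 1 cells (95% Clopper-Pearson interval 97.8 to 99.8%), and in all of them before thinning, against 30.3% of CO stromal cells and 28.2% of CO endothelial cells at the same depth. Adgrg7, an adhesion G protein-coupled receptor that marks the luminal clusters, had a UMI in 36.2% of cluster 1 cells (31.5 to 41.1%), and in 82.4% before thinning. Its share was 1.26% in the gland clusters, 2.13% in stromal cells and 0.469% in endothelial cells, whose median depth before thinning was 17621, 8919 and 9074 UMIs. The Adgrg7 level was 87.4 CPM in cluster 1 and 54.5 to 80.7 CPM in the other 8 luminal clusters, so cluster 1 was the highest of the 9. The 8 luminal genes that the study picked from these libraries summed to 828 CPM in cluster 1 and 826 CPM in the other luminal clusters, and to 48.5 to 67.2 CPM in the 4 gland clusters. A further 7 luminal genes (Wnt4, Fzd1, Numb, Calb1, Lpar3, Tmprss11d and Krt84) summed to 275 CPM in cluster 1, to 229.9 to 530.1 CPM in the other luminal clusters and to 50.5 to 96.3 CPM in the gland clusters.

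Markers of mature gland, stromal, immune, endothelial, mesothelial and basal cells were low. The mature gland list (Foxa2, Spink1, Prss28, Prss29, Cxcl15 and Aldh1a1) summed to 22.3 CPM in cluster 1, to 20.04 to 405 CPM in the other luminal clusters and to 85024 CPM in gland cluster 13, and Cxcl15 had no UMI in cluster 1. The 22 cell cycle genes summed to 154 CPM, below each of the other 8 luminal clusters (189 to 276 CPM) and the 2605 CPM of cycling cluster 4. The 9 stromal markers summed to 291 CPM (288 to 674 CPM in the other luminal clusters), the 10 immune markers to 49.2 CPM (32.1 to 111 CPM), the 5 endothelial markers to 3.54 CPM (3.54 to 15.25 CPM), the 5 mesothelial markers to 42.1 CPM and the 5 basal markers to 5.53 CPM. None of these stromal, immune, endothelial, mesothelial and basal markers was at 0, and Trp63, which defines basal cells, had 1 UMI in all 398 cells. For S100g, which gland cells express strongly, 25.1% of cluster 1 cells had a UMI at 5000 UMIs against 91.0% of gland cells, 25.4% of stromal cells and 36.2% of endothelial cells, so its level in cluster 1 was read as background. The developing gland list, which holds S100g and 7 further genes, summed to 3354 CPM in cluster 1, to 674 to 3769 CPM in the other luminal clusters and to 72944 CPM in gland cluster 8, and 3105 CPM of the cluster 1 sum was Prap1.

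Of 2834 genes with at least 50 CPM in cluster 1 or in the other luminal clusters, 94 (3.32%) were at least 25% higher in cluster 1 and 236 (8.33%) were at least 20% lower, which are the same fold in either direction. With cells of at most 10% mitochondrial UMIs the counts were 233 (8.06%) and 260 (8.99%), so the higher share against which the lists below are read rests on the cells kept. The median ratio over all 2834 genes was 1.02. The higher genes differed by little, and at 1.5-fold there were 2 higher genes and 122 lower genes. Cluster 1 was the highest of the 9 luminal clusters for 238 genes (8.4%) and the lowest for 120 genes (4.23%). The plot of ratio against level shows that the lower side was led by genes of the immediate early and NF-kB response lists.

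**Figure D1:**
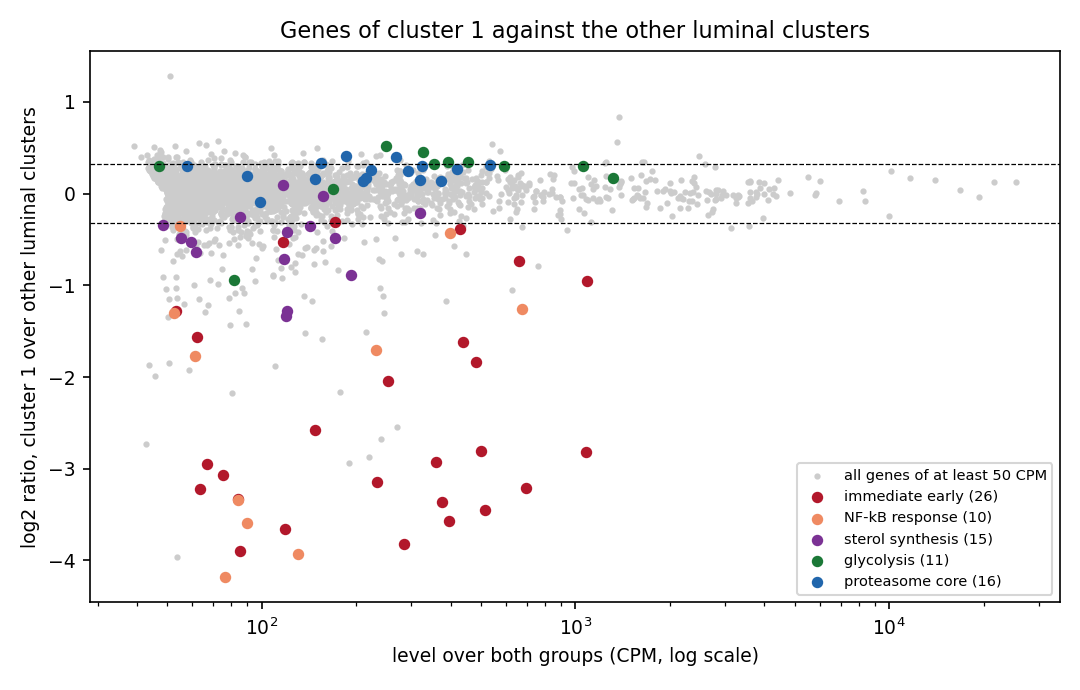
Log2 ratio of each of 2834 genes in cluster 1 over the other luminal clusters (y axis) against its level over both groups in CPM (x axis, log scale). Each point is a gene, colors mark 5 gene lists with the number of genes that pass 50 CPM, and the dashed lines are 25% higher and 20% lower: 25 of 26 immediate early genes and all 10 NF-kB response genes lie below the lower line.

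The immediate early genes were the group in which cluster 1 stood furthest from the other luminal cells. Of 36 listed genes 26 passed the level filter, 25 of these were at least 20% lower in cluster 1 and none was higher, against 8.33% lower among all genes, and the median ratio was 0.137. Summed over all 36 genes the level was 2821 CPM in cluster 1 (2790 to 2852 CPM) and 10419 CPM in the other luminal clusters, a 3.69-fold difference. The sum was 2854 CPM in cluster 2, 3142 CPM in cluster 10, 3469 CPM in cluster 6 and 4663 CPM in cluster 9. It was 9023 CPM in cluster 5, 14367 CPM in cluster 11, 15508 CPM in cluster 0 and 20295 CPM in cluster 7. Cluster 1 was thus at the low end of the luminal clusters, next to cluster 2, and clusters 0, 7 and 11 were at the high end.

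**Figure D2:**
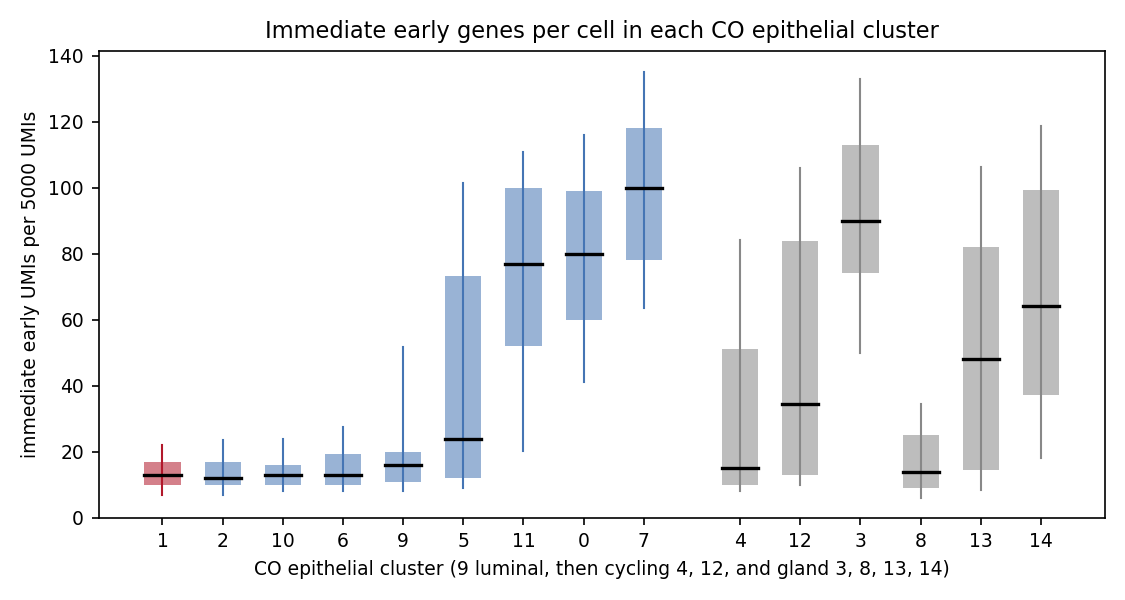
UMIs of the 36 immediate early genes per 5000 UMIs of a cell (y axis) in each CO epithelial cluster (x axis), with luminal clusters first. Black lines are medians over cells, boxes the quartiles and thin lines the 10th to 90th percentiles; cluster 1 (red) has a median of 13 and cluster 7 a median of 100.

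The low level was shared by nearly all cells of cluster 1. At 5000 UMIs per cell the median cell had 13 immediate early UMIs, with quartiles of 10 and 17 and a range of 2 to 50. The median was 12 in cluster 2, 13 in clusters 6 and 10, 80 in cluster 0 and 100 in cluster 7. Of the cluster 1 cells, 36 of 398 (9.05%) had more than 22 UMIs, its 90th percentile. The same limit was passed by 30 of 274 cells of cluster 2 (10.9%, 7.51 to 15.3%), by 465 of 476 cells of cluster 0 (97.7%, 95.9 to 98.8%) and by all 134 cells of cluster 7. Cluster 5 was mixed, with 89 of 168 cells above it (53.0%). Across the 398 cells the immediate early count had a Spearman rho of -0.0038 with the cell's total UMIs, of 0.094 with the NF-kB response count and of -0.12 with the mitochondrial count, where the counts of a cell share 1 fixed total.

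Transcription factors of the AP-1 family were among the genes with low ratios. Fosb (chr7:19302696-19310051, minus strand, GENCODE M21 on GRCm38) had 24.2 CPM in cluster 1 (21.4 to 27.3 CPM) and 343 CPM in the other luminal clusters (338 to 348 CPM), which is 14.2-fold lower. By cluster, Fosb had 32.6 CPM in cluster 2, 42.0 in 10, 66.0 in 6, 107 in 9, 277 in 5, 423 in 11, 507 in 0 and 1033 in 7, so cluster 1 was the lowest of the 9. Fos had 182 CPM in cluster 1, 205 CPM in cluster 2 and 2310 CPM in cluster 7. A Fos UMI was seen in 47.7% of cluster 1 cells at 5000 UMIs (42.7 to 52.8%), against 77.8% of other luminal cells and 75.2% of stromal cells, and before thinning in 91.5% of cluster 1 cells. Jun was 56.9 against 619 CPM and Atf3 11.3 against 143 CPM, whereas Jund, which is less tied to stimulation, was 428 against 715 CPM. Fosl2 was closer still, at 85.4 against 124 CPM.

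Other early transcription factors and feedback regulators lay low as well. Egr1, a zinc finger factor, had 40.1 CPM in cluster 1 (36.4 to 44.0 CPM) and 476 CPM in the other luminal clusters, and 17.1% of cluster 1 cells had a UMI at 5000 UMIs against 59.9%. Klf6 was 89.5 against 830.5 CPM. Klf4, a zinc finger factor of differentiated epithelium, was 342 against 446 CPM. Dusp1, a phosphatase that inactivates MAP kinases, had 6.89 CPM in cluster 1 (5.43 to 8.63 CPM) against 103 CPM, and was the lowest of the 9 clusters. Its relative Dusp5 had 8.16 against 76.2 CPM, and Dusp6 143 against 177 CPM, the only gene of the 26 between these limits. Zfp36, which binds and destabilizes AU-rich transcripts, had 56.2 against 426 CPM. Cyr61, a secreted matrix protein, and Hbegf, an EGF receptor ligand, had 43.5 against 449 CPM and 31.3 against 277 CPM. Trib1, a pseudokinase, had 9.98 against 100.2 CPM.

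The NF-kB response genes followed the same side. All 10 of the 22 listed genes that passed the level filter were at least 20% lower in cluster 1, against 8.33% of all genes, with a median ratio of 0.299. The list summed to 908 CPM in cluster 1 (891 to 926 CPM) and 2325 CPM in the other luminal clusters. The sum was 1003 CPM in cluster 2, 1079 CPM in cluster 6, 1091 CPM in cluster 10 and 1415 CPM in cluster 9. It was 1860 CPM in cluster 5, 3222 CPM in cluster 0, 3612 CPM in cluster 11 and 3759 CPM in cluster 7. Cxcl2, a chemokine that draws neutrophils, had the lowest ratio of all 2834 genes. It had 56 UMIs in all 398 cells, 5.08 CPM (3.84 to 6.60 CPM), against 92.3 CPM (89.7 to 95.1 CPM), which is 18.2-fold lower. By cluster, Cxcl2 had 5.43 CPM in cluster 10, 7.55 in 2, 22.2 in 6, 43.2 in 9, 89.3 in 5, 133.6 in 7, 153.8 in 11 and 154.4 in 0. Clusters 10 and 2 were thus near cluster 1. A Cxcl2 UMI was seen in 3.27% of cluster 1 cells at 5000 UMIs, 16.2% of other luminal cells and 4.69% of endothelial cells, so the share in cluster 1 was within that of cells of another type. Cxcl1 had 8.98 against 108 CPM. Among inhibitors of the pathway, Tnfaip3 had 10.3 against 157 CPM, Tnip3 9.98 against 101 CPM and Nfkbia 317 against 756 CPM. Nfkbia had 315 CPM in cluster 2, 337 CPM in clusters 6 and 10 and 1154 CPM in cluster 0, so clusters 1, 2, 6 and 10 lay within 25 CPM of each other. Csf3, the neutrophil growth factor, had 20.6 CPM in cluster 1 and 30.6 to 205 CPM in the other luminal clusters. Among 10 chaperone genes above 50 CPM, 3 were at least 20% lower and none was higher, against 8.33% lower among all genes. The co-chaperone Dnajb1 had the lowest ratio of these, at 44.4 against 284 CPM. The other 7 lay between the limits, and the median ratio was 0.870. The chaperone list summed to 5363 CPM in cluster 1, above clusters 2, 6 and 10 (5027, 4933 and 4925 CPM). The remaining luminal clusters had more, up to 7039 CPM in cluster 5. Itpkc, an inositol trisphosphate kinase outside both lists, had 4.17 against 64.9 CPM.

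RefSeq promoter stretches are shown because the same motif letters stood in genes with low ratios and in genes with ratios over 1. Each stretch is the 150 bases before a transcript's start on GRCm38.p6, 5′ to 3′, with the motif in capitals. The first 4 hold TGACGTCA, the full cyclic AMP response element (CRE). They are those of Dusp1 (chr17:26508473-26508622, minus strand) and Ppp1r15a (chr7:45526269-45526418, minus strand), which were at least 20% lower, of Mif (chr10:75860278-75860427, minus strand), which was at least 25% higher, and of Ldha (chr7:46845654-46845803, plus strand, 1 of 2 listed starts with the motif), which was higher by less than 25%.
Dusp1: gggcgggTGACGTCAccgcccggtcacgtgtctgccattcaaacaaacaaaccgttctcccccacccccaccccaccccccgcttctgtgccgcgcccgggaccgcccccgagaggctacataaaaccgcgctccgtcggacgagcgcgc
Ppp1r15a: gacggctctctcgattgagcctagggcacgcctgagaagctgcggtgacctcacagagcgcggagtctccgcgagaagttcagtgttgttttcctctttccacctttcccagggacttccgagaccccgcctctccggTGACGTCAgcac
Mif: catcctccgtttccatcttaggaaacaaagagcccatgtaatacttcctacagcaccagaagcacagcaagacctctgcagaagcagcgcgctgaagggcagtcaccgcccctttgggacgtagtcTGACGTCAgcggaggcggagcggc
Ldha: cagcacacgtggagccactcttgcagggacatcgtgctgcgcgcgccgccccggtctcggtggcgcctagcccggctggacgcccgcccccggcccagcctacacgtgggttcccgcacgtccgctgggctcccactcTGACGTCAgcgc

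The next 3 hold the 10-base kappa B motif and belong to genes of the NF-kB response list. They are those of Cxcl1 (chr5:90891095-90891244, plus strand), Cxcl2 (chr5:90903749-90903898, plus strand) and Tnfaip3 (chr10:19015411-19015560, minus strand, 1 of 2 listed starts with the motif).
Cxcl1: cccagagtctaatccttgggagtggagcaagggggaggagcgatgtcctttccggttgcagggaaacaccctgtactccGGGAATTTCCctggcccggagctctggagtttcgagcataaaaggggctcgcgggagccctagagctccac
Cxcl2: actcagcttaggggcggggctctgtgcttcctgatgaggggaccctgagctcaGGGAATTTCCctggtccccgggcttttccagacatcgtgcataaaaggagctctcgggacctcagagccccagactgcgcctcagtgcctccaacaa
Tnfaip3: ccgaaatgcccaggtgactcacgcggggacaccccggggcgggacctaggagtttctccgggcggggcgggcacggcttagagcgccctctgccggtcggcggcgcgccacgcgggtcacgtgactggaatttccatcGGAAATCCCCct

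The last is the stretch of Pgam1 (chr19:41911721-41911870, plus strand), a glycolytic gene at least 25% higher in cluster 1, with ACGTG, the core of the hypoxia response element. Capitals mark only the motif named for each stretch, and ACGTG also stands in small letters in those of Dusp1, Ldha and Tnfaip3.
Pgam1: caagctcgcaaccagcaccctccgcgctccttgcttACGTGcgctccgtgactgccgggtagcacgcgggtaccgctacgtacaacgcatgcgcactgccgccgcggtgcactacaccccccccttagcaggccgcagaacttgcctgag

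Over 27025 genes with a promoter entry, the 300-base window around a start held TGACGTCA on either strand in 2.03% and its shorter form TGACG, which the full motif contains, in 23.0%. Among the 26 matched genes of the immediate early list the full motif stood in 4 (15.4%) and the shorter form in 16 (61.5%). The kappa B motif stood in 6.55% of all genes and in 9 of 15 matched NF-kB response genes (60.0%). ACGTG stood in 21.8% of all genes and in 11 of 16 glycolysis genes (68.8%). In other lists the shares of ACGTG and TGACG lay on either side of those of all genes, while those of the kappa B motif were all above. The kappa B motif stood in 5 of 26 immediate early genes (19.2%), 2 of 16 glycolysis genes (12.5%) and 1 of 15 sterol synthesis genes (6.67%). ACGTG stood in 11 of 26 immediate early genes (42.3%) and 2 of 15 NF-kB response genes (13.3%), and TGACG in 8 of 15 sterol synthesis genes (53.3%), 4 of 16 glycolysis genes (25%) and 3 of 15 NF-kB response genes (20%). A match of letters is not evidence of binding. A list of NF-kB response genes was likely to hold the kappa B motif by its definition. The lists also include genes below the level filter, so these shares are not a result about cluster 1.

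Glycolysis lay on the higher side. Glycolytic enzymes split glucose into pyruvate, and lactate dehydrogenase turns pyruvate into lactate. Of 16 listed genes 11 passed the level filter, 4 of these were at least 25% higher in cluster 1, against 3.32% of all genes, and 1 was lower. The median ratio was 1.24. Cluster 1 was the highest of the 9 luminal clusters for 8 of the 11, against 8.4% of all genes. The list summed to 5929 CPM in cluster 1 (5884 to 5975 CPM), to 3356 to 5342 CPM in the other luminal clusters and to 5522 CPM in cycling cluster 4. Per cell at 5000 UMIs, the median was 28.5 glycolysis UMIs in cluster 1, with quartiles of 23 and 35, and 25 in cluster 2, 26 in cluster 0 and 17 in cluster 11. The quartiles of clusters 0 and 2 overlapped those of cluster 1, and those of cluster 11 (11 and 20) did not.

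The 4 genes that passed were Pgam1, Eno1, Pgk1 and Tpi1. Pgam1 (chr19:41911923-41918660), phosphoglycerate mutase, had 332 CPM in cluster 1 (322 to 343 CPM) and 231 CPM in the other luminal clusters (227 to 235 CPM), a ratio of 1.44. Across the others Pgam1 ran from 160 CPM in cluster 11 to 270 CPM in cluster 9, with 340.2 CPM in cycling cluster 4, and a UMI was seen in 77.9% of cluster 1 cells and 65.1% of other luminal cells at 5000 UMIs. Eno1 (chr4:150236721-150248879), the enolase that follows Pgam1 in the pathway, had 420 CPM against 307 CPM, and ran from 160 to 337 CPM in the other clusters. Pgk1 was 476 against 374 CPM and Tpi1 549 against 433 CPM. Pkm (424 against 340 CPM), Aldoa (701 against 569 CPM) and Ldha (1250 against 1012 CPM) stood just under 25% higher. Gapdh had 1450 CPM in cluster 1 and 1443 CPM in cluster 2. Hk2, a hexokinase at the entry to the pathway, went the other way, with 46.3 CPM in cluster 1 against 89.2 CPM, from 33.3 CPM in cluster 10 to 137 CPM in cluster 7.

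**Figure D3:**
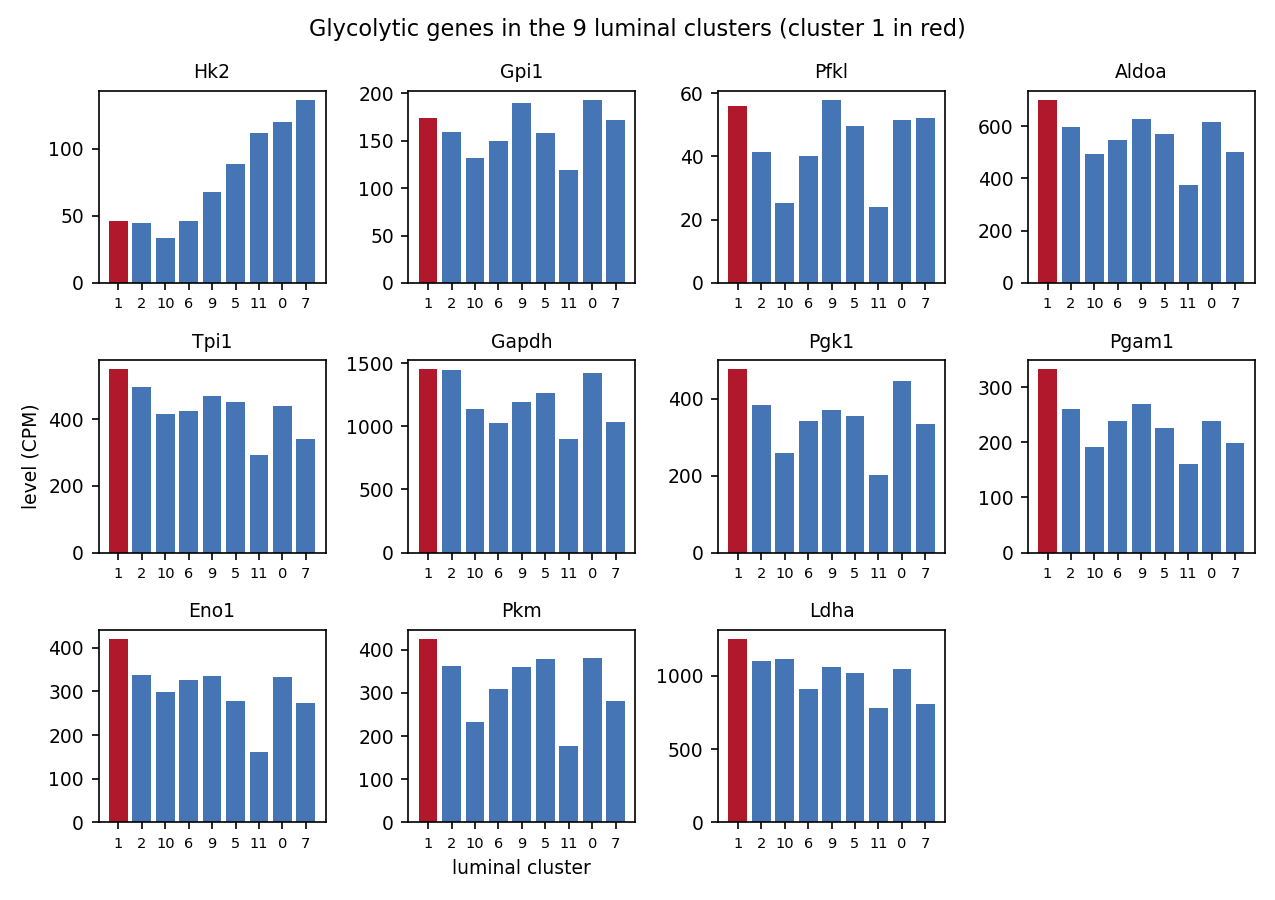
Level in CPM (y axis, from 0) of the 11 glycolysis genes of at least 50 CPM in the 9 luminal clusters (x axis, ordered by the level of immediate early genes). Cluster 1 (red) is the highest bar for 8 genes, and for Hk2 it stands at 46.3 CPM while cluster 7 is the highest.

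Proteasome, respiratory and thiol genes had median ratios nearer to 1 than glycolysis. The 16 proteasome core genes above 50 CPM had a median ratio of 1.19, and 3 were at least 25% higher, against 3.32% of all genes. Psma4 had 234 against 175 CPM, Psma6 334 against 254 CPM and Psma1 186 against 147 CPM. Cluster 10 had a higher proteasome sum (4605 CPM) than cluster 1 (4517 CPM). Nuclear genes of oxidative phosphorylation had a median ratio of 1.09, with 2 of 74 at least 25% higher and none lower, so the share called was no larger than the 3.32% of all genes. The 13 mitochondrial transcripts summed to 113626 CPM in cluster 1 and to 86543 to 181969 CPM in the other luminal clusters. Of 17 thiol and glutathione genes above 50 CPM, 4 were at least 25% higher, against 3.32% of all genes: Chac2, a glutathione-degrading enzyme (198 against 140 CPM), Mgst3 (302 against 225 CPM), and the peroxiredoxins Prdx1 (1972 against 1555 CPM) and Prdx4 (173 against 137 CPM). The thiol and glutathione list summed to 8959 CPM in cluster 1, below cluster 2 (9862 CPM) and cluster 10 (9750 CPM) and above the rest. Chac2 had 200.6 CPM in cluster 10, close to cluster 1. Mif, a cytokine found inside many cells, had 745 CPM in cluster 1 and 426 to 618 CPM in the other luminal clusters.

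Sterol synthesis lay on the lower side. Of 15 genes above 50 CPM, 11 were at least 20% lower in cluster 1 and none higher, against 8.33% lower and 3.32% higher among all genes, with a median ratio of 0.716. Insig1, a sterol sensor, had 55.2 CPM in cluster 1 against 135 CPM, and Hmgcs1, an early synthesis enzyme, had 114 against 210.5 CPM. Fdps and Ebp differed little, at 154 against 157 CPM and 123 against 115 CPM. The list summed to 1584 CPM in cluster 1 (1561 to 1608 CPM), 1531 CPM in cluster 2, 1538 CPM in cluster 6 and 2764 CPM in cluster 7. Clusters 1, 2 and 6 thus had the lowest sums of the 9, and the 3 clusters highest in immediate early genes had sums of 2224 to 2764 CPM.

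**Figure D4:**
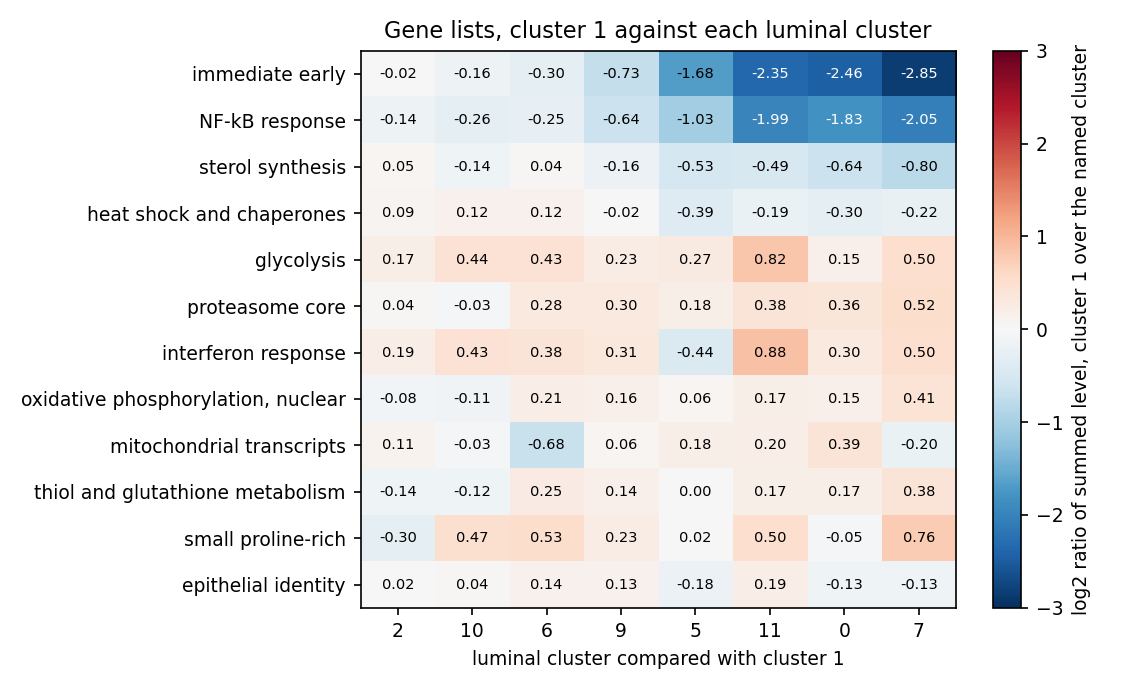
Log2 ratio of the summed level of 12 gene lists in cluster 1 over each other luminal cluster (columns, ordered by immediate early level). Blue is lower and red higher in cluster 1; immediate early genes run from -0.02 against cluster 2 to -2.85 against cluster 7, and glycolysis is positive against all 8.

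Hormone receptors were close to those of the other luminal cells, while single secretory genes lay on either side. Esr1, the estrogen receptor, had 220 CPM in cluster 1 (211 to 229 CPM) and 229 CPM in the other luminal clusters, and Pgr, the progesterone receptor, 77.6 against 83.7 CPM. Of 13 estrogen-responsive genes above 50 CPM, 1 was at least 25% higher and 1 at least 20% lower, against 3.32% and 8.33% of all genes. The higher one was Kap, an androgen- and estrogen-regulated secreted protein (731 against 500.5 CPM), and the lower one Clu, a secreted chaperone (107 against 190 CPM). Lcn2, an iron-sequestering antimicrobial protein, had 7975 against 8452 CPM, and Ltf, lactoferrin, 2320 against 2725 CPM. Sprr2f, a small proline-rich protein induced by estrogen, was the leading transcript of its list, at 17234 CPM in cluster 1 and 16757 CPM in the other luminal clusters. Sprr2a3 was higher (1500 against 1185 CPM) and Sprr1a lower (303 against 479 CPM). Car2, a carbonic anhydrase, had 1517 CPM in cluster 1, above all 8 others (879 to 1381 CPM). Prap1, a secreted acidic protein, had 3105 CPM in cluster 1 and from 309 CPM in cluster 11 to 3512 CPM in cluster 2. Ctsl (chr13:64359337-64370890), a lysosomal protease, had 1845 CPM (1820 to 1870.5 CPM), above all 8 others (966 to 1583 CPM), with a UMI in 99.2% of cells, against 95.8% of other luminal, 90.2% of stromal and 98.8% of mesothelial cells at the same depth.

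Some of the higher genes were uneven among the cells of cluster 1. Kap had a UMI in 54.3% of the cells at 5000 UMIs (49.2 to 59.2%), up to 91 UMIs in 1 cell, and the 10% of cells with most of it held 63.8% of its UMIs. A Kap UMI was seen in 22.7% of stromal cells. In the other luminal clusters Kap ran from 75.6 CPM in cluster 5 to 969 CPM in cluster 2. Peg10, an imprinted gene derived from a retrotransposon, had 61.9 against 44.3 CPM, was seen in 17.3% of the cells, and 10% of the cells held 77.0% of its UMIs. Ifit1, induced by interferon, had 84.9 against 58.1 CPM, and 10% of the cells held 71.2% of its UMIs. By comparison, 10% of the cells held 22.5% of the UMIs of Mif, which is at the level of Kap, and, of genes at the level of Ifit1 and Peg10, 45.6% of Serpinb5 UMIs, 48.5% of Rasa4 UMIs and 46.3% of Nsrp1 UMIs. Of 7 interferon response genes above 50 CPM, 3 were at least 25% higher in cluster 1 (Ifit1, Oasl2 and Rtp4), against 3.32% of all genes, and the list was higher in cluster 5 (1577 CPM) than in cluster 1 (1159 CPM). With only the cells of at most 10% mitochondrial UMIs, 126 in cluster 1 and 713 in the others, the ratios of Kap, Ifit1 and Peg10 were 1.03, 1.201 and 1.09, all below a 25% difference.

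The transcripts with the highest ratios did not follow a list. Yam1 had 98.4 CPM in cluster 1 (92.6 to 104 CPM) and 40.4 CPM in the other luminal clusters, a ratio of 2.44, and RP23-81C12.3 had 2147 against 1202 CPM, a ratio of 1.79. These were the 2 genes past 1.5-fold. Cluster 1 was not the highest for either, since Yam1 had 110 CPM in cluster 10 and 116 CPM in cluster 6, and RP23-81C12.3 had 2996 CPM in cluster 6. Both were lowest in cluster 0, at 14.3 and 550 CPM. Yam1 also had 144 CPM in gland cluster 8. At 5000 UMIs a Yam1 UMI was seen in 37.4% of cluster 1 cells and 20.6% of other luminal cells. The share was 32.5% in stromal, 52.6% in mesothelial and 57.3% in endothelial cells. Over the main and alternative settings the ratio ran from 1.76 to 3.62 for Yam1 and from 1.31 to 2.61 for RP23-81C12.3. Other higher genes were Slc16a14, a member of the monocarboxylate transporter family (99.0 against 66.6 CPM), Serpinb5, a serpin known as maspin (88.7 against 61.6 CPM, highest of the 9), and Rasa4, a Ras GTPase-activating protein (70.6 against 49.1 CPM, highest of the 9). Nsrp1, Srek1ip1 and Frg1, linked to RNA splicing, had 52.3, 60.1 and 141 CPM against 36.4, 42.3 and 99.6 CPM. Among genes for which cluster 1 stood highest, Glrx3, Stx8, Bzw1 and Srp72 exceeded the next cluster by small margins and had ratios of 1.28, 1.27, 1.17 and 1.23.

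Cluster 2 was the cluster most like cluster 1. At least 50 CPM in either was reached by 2768 genes, of which 74 (2.67%) were at least 25% higher in cluster 1 and 91 (3.29%) lower. Against cluster 6 the counts were 277 and 159 of 2816 genes (9.84 and 5.65%), and against cluster 10 they were 207 and 287 of 2838 (7.29 and 10.1%). Against cluster 7 they were 670 and 848 of 3087 (21.7 and 27.5%). The higher genes numbered 290 (10%), 373 (12.9%), 150 (5.11%) and 502 (16.9%) and the lower genes 351 (12.1%), 430 (14.9%), 412 (14%) and 601 (20.2%) against clusters 0, 5, 9 and 11.

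**Figure D5:**
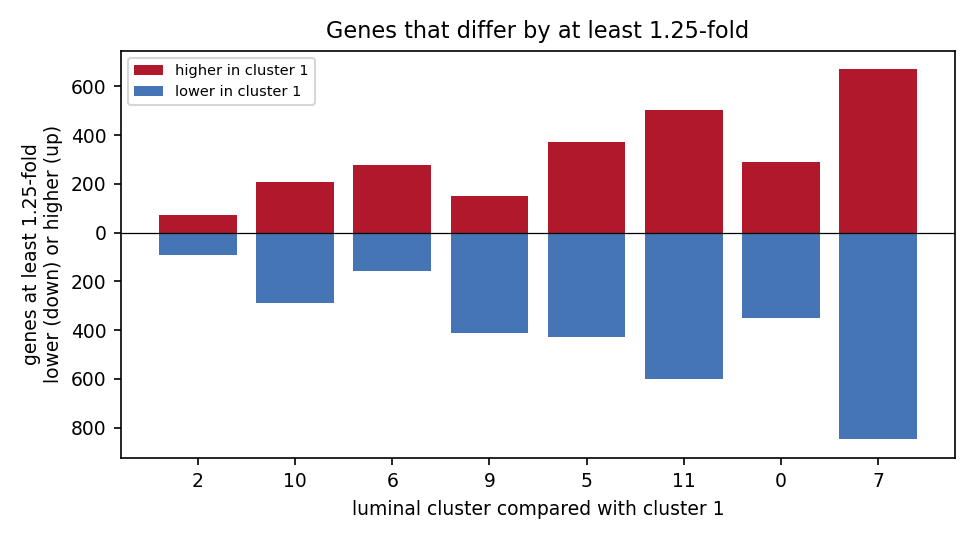
Number of genes (y axis) at least 25% higher (red, upward) or 20% lower (blue, downward) in cluster 1 than in each other luminal cluster (x axis, ordered by immediate early level). Cluster 2 has the fewest, 74 and 91, and cluster 7 the most, 670 and 848.

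The genes with the lowest and highest ratios to cluster 2, named after their values were seen, had mixed roles. Serpinb7 had 11.2 CPM in cluster 1 (9.27 to 13.3 CPM) and 68.0 CPM in cluster 2 (63.1 to 73.1 CPM), the lowest ratio of this pair. Krt84, a hair-type keratin, had 71.2 against 325 CPM, Serpina1c 102 against 415 CPM and Serpinb11 21.0 against 65.7 CPM. Il33, a cytokine released by damaged epithelium, had 31.1 against 91.9 CPM. The D-type cyclins Ccnd2 and Ccnd1, which drive entry into the cell cycle, had 19.8 against 53.9 CPM and 132 against 234 CPM, and Cdkn2a, a cell cycle inhibitor, 28.0 against 50.3 CPM. Aqp4, a water channel, had 50.8 against 99.6 CPM. On the higher side were Peg10 (61.9 against 30.3 CPM), Lrg1 (63.7 against 38.3 CPM), Egln3, an oxygen-dependent prolyl hydroxylase (138 against 86.5 CPM), and Arg1, arginase (294 against 199 CPM). Cluster 2 had the larger median depth, 34712 UMIs per cell against 22184.

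Against clusters 10, 6 and 9 the genes at either end were as follows. Cluster 10 had more Cldn2, a claudin of leaky tight junctions (55.8 CPM against 2.45 CPM in cluster 1), Agr2 (68.8 against 4.81 CPM), Aoc1, an amine oxidase (1025 against 112 CPM), and Mmp7 (68.8 against 20.8 CPM). Cluster 10 had less Aqp4 (2.53 against 50.8 CPM), Prap1 (741 against 3105 CPM) and Spink12, a protease inhibitor (510 against 1943 CPM). Cluster 6, which had the highest mitochondrial share, was led on its higher side by the immediate early genes Fosb (66.0 against 24.2 CPM) and Jun (139.7 against 56.9 CPM), with Cyr61, Egr1 and Ppp1r15a also among its first 7. Among them too was S100g (160 against 67.2 CPM), whose level in cluster 1 was read as background above. Cluster 6 had less Plac8 (1108 against 2004 CPM). Cluster 9 had more S100a9 (105 against 0.816 CPM), S100a8, Il1b and Igkc (571 against 22.6 CPM), which are transcripts of neutrophils, macrophages and plasma cells, and its 10 immune markers summed to 111 CPM against 49.2 CPM. Before thinning, S100a9 was seen in only 15.6% of cluster 9 cells, and Igkc in 37.8% of them against 47.0% of cluster 1 cells. Tnfaip3 (53.4 against 10.3 CPM), Fosb (107 against 24.2 CPM) and Egr1 (162 against 40.1 CPM) were higher in cluster 9 as well. The part of other cells in these differences was not tested.

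In the authors' joint clustering of CO and DES epithelium, 370 of the 398 cells (92.96%, 89.99 to 95.3%) were in integrated cluster 0. That cluster held 872 CO cells and no DES cell, among them 228 cells of cluster 2, 90 of cluster 10, 89 of cluster 5, 37 of cluster 9 and 16 of cluster 6, but 7 of the 482 cells of cluster 0 and none of cluster 7. Integrated cluster 1, which held 464 cells of CO cluster 0, 130 of cluster 7 and 96 of cluster 11, took 11 cluster 1 cells (2.76%). Another 14 cells were in integrated cluster 14, where most cells of cluster 6 lay. No cluster 1 cell shared an integrated cluster with a DES cell except 1 cell in integrated cluster 9. The joint clustering used the same CO cells and counts, so these shares are no independent check of the cluster 1 label.

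The DES library gave a second set of epithelial clusters, 16 in number, whose levels are set beside those of cluster 1 with no test. The glycolysis list had 5929 CPM in cluster 1 and 2038 to 3352 CPM in the DES clusters, which were also below the 3356 to 5342 CPM of the other CO luminal clusters. Small proline-rich genes had 19385 CPM and 1167 to 12174 CPM, with 11474 to 23910 CPM in the other CO luminal clusters. Sterol synthesis had 1584 CPM and 363 to 1086 CPM, with 1531 to 2764 CPM in the other CO luminal clusters. Ctsl (1845 CPM) and Kap (731 CPM) lay above all 16 DES clusters, whose highest values were 761 and 167 CPM. The other CO luminal clusters had 966 to 1583 CPM of Ctsl and 75.6 to 969 CPM of Kap. The immediate early sum of cluster 1 (2821 CPM) lay above 15 of the 16 DES clusters and below DES cluster 9 (13069.5 CPM). The other CO luminal clusters had immediate early sums of 2854 to 20295 CPM. Jun was an exception within that list, since all 16 DES clusters had more (74.3 to 1412 CPM) than cluster 1 (56.9 CPM).

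In the tissue sections, each spot covers several cells, so fewer cells of a type and less RNA per cell cannot be told apart there, and epithelium-rich spots were the 10% of spots with most Epcam, Cdh1, Krt8, Krt18 and Krt19. The 15 genes with the highest ratios in cluster 1 were compared between these and the remaining spots of the same section. Only Ifit1, Serpinb5 and Chac2 had a higher CPM in epithelium-rich spots of all 4 sections, 3 of 15 genes, while 43.5% of all genes tested did so. In both CO sections 11 of the 15 did, against 65.5% of all genes tested, and with 15 genes no more is read from either share. In the second DES section the counting intervals of all 3 ratios spanned 1 (Ifit1 0.67 to 1.79, Serpinb5 0.985 to 1.70, Chac2 0.641 to 1.66). In the first DES section those of Serpinb5 (0.852 to 1.38) and Chac2 (0.954 to 1.94) did so too. Some of the 15 were too sparse to be compared, with no Slc16a14 UMI in the second DES section, no Peg10 UMI in the epithelium-rich spots of either DES section and 3 or 4 Yam1 UMIs in those of each section. The paper reports a tissue fold in its second CO section and poorly resolved clusters in its second DES section, and relied mainly on the first of each. The epithelium-rich spots of the 2 CO sections also differed. The developing gland list summed to 6042 and 56943 CPM in them, and the luminal genes named by the study to 767 and 224 CPM. Kap had 333 CPM in epithelium-rich spots of the first CO section against 164 CPM in its other spots, and 5873 against 1936 CPM in the second. Ctsl had 1643 against 907 CPM and 1032 against 671 CPM there, but 443 against 620 CPM and 349 against 450 CPM in the DES sections. Mif was below its other-spot level in all 4 sections, with counting intervals that spanned 1 in both DES sections (0.852 to 1.02 and 0.820 to 1.01). RP23-81C12.3 was below its other-spot level in all 4 as well, with ratios of 0.811 and 0.707 in the CO sections and 0.787 and 0.820 in the DES sections. The glycolysis list had ratios of 1.17 and 0.891 in the CO sections and 0.926 and 0.970 in the DES sections. The immediate early list was higher in epithelium-rich spots of every section, by 1.35- and 1.41-fold in the CO sections and 1.15- and 1.38-fold in the DES sections. Its sum in these spots was 2465 and 1973 CPM in the CO sections, below the 2821 CPM of cluster 1. Spots and cells were measured by different methods, and the difference in level was not tested. Spots carry no cluster label, so cluster 1 itself was not located in the tissue.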

How the data were processed

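Single cells were captured from 1 CO and 1 DES library and spots from 2 CO and 2 DES sections. The authors counted UMIs with Cell Ranger 3.0.1 and Space Ranger 1.2.2 on mm10, removed doublets and deposited unnormalized counts per gene. The deposited cell table also gives saturation as a fraction, which was not used for any comparison. Cluster names were the authors'. Here counts were summed per cluster and scaled to CPM (Python 3.11, numpy and scipy), genes under 50 CPM in both groups were left out, and genes at least 25% higher or 20% lower were counted. Shares of cells used cells thinned to 5000 UMIs with a fixed seed. All 398 cells of cluster 1, and 1477 of 1510 other luminal cells, reached that depth. Depth per section was 9117099 to 12506177 UMIs. Alternatives varied scaling, reference, filter and cells. The ratio, interval and thinning steps were tested on simulated data. Intervals cover counting error only, and with 1 CO library no p-value was computed. Genes named were the 15 highest and 15 lowest ratios, the 8 in which cluster 1 stood furthest above or below all other luminal clusters, and up to 6 members per list by level. Genes named from single pairs of clusters, and further list members, were chosen after their values were seen. The members and lists were chosen with earlier results of these data known. Some results of the sterol synthesis list are not reported here.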

Additional observations from a re-analysis of the deposited data

How the results depend on the processing

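The count of 94 higher genes became 146 with the 20 most abundant genes left out of the totals, 178 against all other CO epithelial cells, 233 (beside 260 lower) with cells of at most 10% mitochondrial UMIs, and 2 at 1.5-fold. With 20 CPM, 200 CPM or no filter beyond 1 UMI in both groups it was 216, 25 and 2346, and the count of 236 lower genes was 510, 50 and 3404. The number of genes tested changed with the filter as well. With 20 CPM the 216 higher genes were 3.85% of 5607 tested, beside 3.32% of 2834 in the main setting. What moved the counts was not tested. The lower count was 122 at 1.5-fold. The ratio of the immediate early list, 0.271, was 0.279 as a mean over cells, 0.274 without the 20 most abundant genes, 0.308 with equal weight of the 8 clusters, 0.365 without cluster 0, 0.239 with cells of at most 10% mitochondrial UMIs and 0.266 divided by the median ratio. The NF-kB ratio, 0.391, was 0.404 as a mean over cells, 0.404 thinned to 10000 UMIs, 0.426 with equal weight, 0.491 without cluster 0, 0.434 against all other CO epithelial cells and 0.350 with cells of at most 10% mitochondrial UMIs. Glycolysis, 1.208, was 1.222 as a mean over cells, 1.222 without the 20 genes, 1.223 thinned, 1.29 with equal weight, 1.27 without cluster 0, 1.28 against all other CO epithelial cells, 1.253 with low mitochondrial cells and 1.19 divided by the median ratio. Sterol synthesis, 0.744, was 0.757, 0.776, 0.814, 0.811, 0.764 and 0.732 as a mean over cells, with equal weight, without cluster 0, against all other CO epithelial cells, with low mitochondrial cells and divided by the median. The developing gland ratio, 1.28, reversed to 0.354 against all other CO epithelial cells, which add the gland clusters. None of the 36 named genes changed direction, and the cause of these shifts was not tested. The 3 genes found in epithelium-rich spots of every section became 7 with the top 20% of spots, 11 in the CO sections alone (chosen after seeing the data), and 3 to 6 when 1 section was left out, with 6 without the second DES section. No result came from a test, and no paired analysis was run. Spots were compared within each section as values only. Of the shares of cells at other depths, 64 moved beyond their interval and 8 did not. With 1 CO library, animal-to-animal spread cannot be given.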
